A study of Ovis aries with 9 samples.

Results

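The 9 genes described here encode proteins of the myelin sheath or of the mature oligodendrocyte, the cell that makes myelin in the brain: MBP, MOG, MAG, MOBP, CNP, CLDN11, UGT8, MAL and ERMN. They were chosen by name, and the level of each was the sum of FPKM over its coding RefSeq transcripts (identifiers starting with NM or XM). FPKM is an abundance scale in which the sequenced fragments are corrected for transcript length and for library size, so that levels can be compared between genes. The 9 genes were among the 21284 genes that had a coding transcript with a sheep gene symbol in the deposited values, and all 9 were among the 13696 genes that passed a filter on low values (a mean FPKM of at least 0.5 over the 9 libraries). Poly(A)-selected RNA of the hypothalamus had been sequenced from 9 Dolang sheep ewes, 1 library per animal. The stages were prepuberty (3 ewes, 120 days after birth), puberty (3 ewes, 130 days) and postpuberty (3 ewes, 150 days). The study assigned stages from behaviour and the look of the vulva, with puberty ewes restless and accepting a ram and the others calm and refusing it, and all ewes were killed with pentobarbital sodium. The labels name no treatment in any group. Libraries are named by stage and replicate number (Prepuberty 1, Puberty 2), and a number does not link animals of different stages.

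Oligodendrocytes wrap axons in many layers of membrane. In compact myelin, MBP holds the cytoplasmic faces of these layers together. MAG and MOG lie in the membranes at the inner and outer surface of the sheath, CLDN11 forms the tight junctions between its turns, and UGT8 makes the galactolipids in which myelin is rich. In the hypothalamus, myelinated fibre tracts such as the fornix run beside largely unmyelinated nuclei, so a tissue block can hold more or less white matter.

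The libraries differed in ways that the stages do not account for. Puberty 2 had FPKM above 0 for 42441 transcripts, against 67824 to 71787 in the other 8 libraries, and its FPKM summed to 599726 against 359588 to 398109. Of all genes tested, 20.3% were higher in Puberty 2 than in every other library and 52.6% were lower than in every other library. Levels, spread and correlation are therefore given over the 8 other libraries, with Puberty 2 beside them. Markers of the labelled tissue were mostly low. AVP was between 0.55 and 10.4 FPKM and OXT between 0.32 and 4.81 FPKM over the 9 libraries. OTP (0 to 4.91 FPKM) and HCRT (0.14 to 1.68 FPKM) were low as well. AGRP, PMCH, SIM1, NKX2-1, GNRH1, KISS1 and GHRH had means below the filter. TRH (0.82 to 36.8 FPKM) and POMC (2.09 to 22.4 FPKM) reached higher levels. SST had the highest mean of the 15 hypothalamic markers (4.27 to 107 FPKM), and CRH was at 118 FPKM in Prepuberty 1 and at most 7.14 FPKM in the others. The deposited FPKM do not give the reads behind a gene's value, so no counting interval is given, and the labels do not say more of the animals than their stage.

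MBP was the most abundant of all 13696 genes tested by the mean over the 9 libraries, and CNP ranked 24th. Over the 8 libraries without Puberty 2 the mean level was 5033 ± 2466 FPKM for MBP and 688 ± 131 FPKM for CNP (SD, n = 8). MOBP (333 ± 125), CLDN11 (290 ± 78.5), MOG (284 ± 47.7) and MAG (273 ± 45.3 FPKM) followed, and MAL (132 ± 19.6), UGT8 (122 ± 30.1) and ERMN (117 ± 18.6 FPKM) were lowest. The steps from MBP to CNP, from CNP to MOBP and from MAG to MAL were seen in 8 of 8 libraries. The neighbours between them did not differ beyond their spread. MOBP exceeded CLDN11 in 5 of 8 libraries, CLDN11 exceeded MOG in 4, MOG exceeded MAG in 4, MAL exceeded UGT8 in 6 and UGT8 exceeded ERMN in 5.

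**Figure D1:**
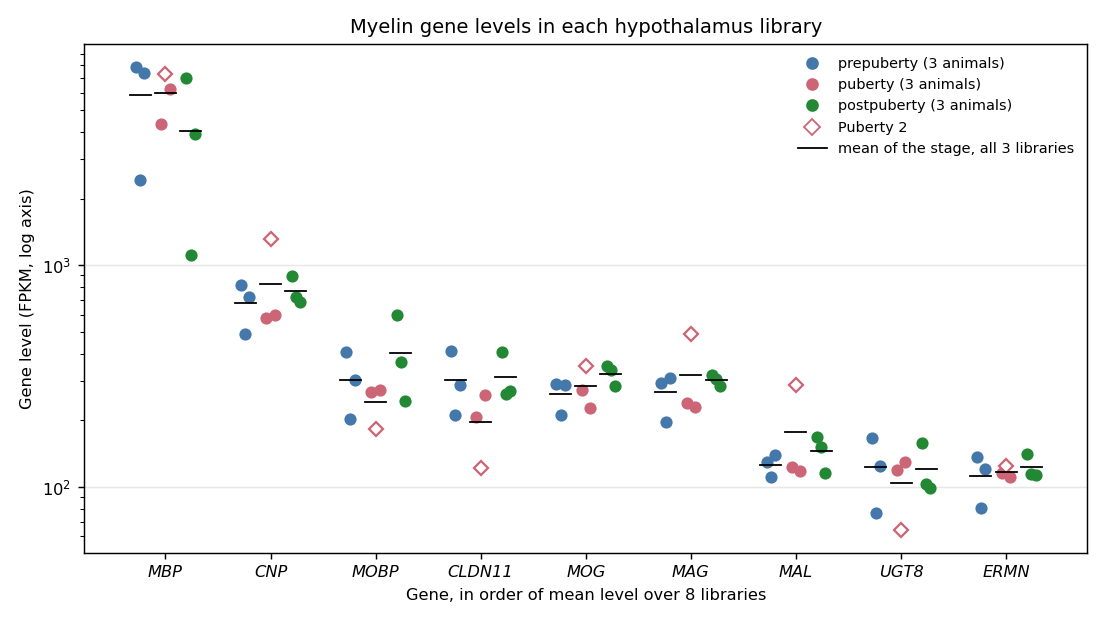
Gene level in FPKM (vertical log axis) of the 9 genes in each library, coloured by stage, with Puberty 2 as an open diamond and a line at the mean of the 3 libraries of each stage. MBP lies between 1112 and 7824 FPKM and the other 8 genes between 64.4 and 1308 FPKM. The stages overlap for every gene except CLDN11, which was higher in all postpuberty libraries than in all puberty libraries. Between these stages 7.15% of all genes tested did not overlap.

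Of the structural proteins of compact myelin, MBP (gene ID 101109407, chr23:2419407-2523957 in ARS-UI_Ramb_v3.0) was read at 7824, 2426 and 7397 FPKM in Prepuberty 1, 2 and 3. It was read at 4353, 7298 and 6215 FPKM in Puberty 1, 2 and 3, and at 7013, 1112 and 3920 FPKM in Postpuberty 1, 2 and 3. The lowest libraries, Postpuberty 2 and Prepuberty 2, belong to different stages, and each of these stages also held a library well above them (Prepuberty 1 and Postpuberty 1). The highest of the 8 libraries was 7.03 times the lowest. The SD of log2(FPKM + 1) over the 8 libraries was 0.97, larger than that of 96.8% of the genes tested, whose median SD was 0.28. Among the 8 libraries MBP supplied between 32.0% (Postpuberty 2) and 76.3% (Prepuberty 3) of the summed FPKM of the 9 genes. Beside these values, Prepuberty 2 and Postpuberty 2 also had the lowest levels among the 8 libraries of the astrocyte markers GFAP (2348 and 2370 against 3282 to 6624 FPKM) and S100B (1091 and 1112 against 1371 to 2288 FPKM), as well as the lowest sums of the 8 astrocyte markers (4726 and 4639.8 against 5989 to 9597 FPKM, no marker at 0 in any library). The sum follows these most abundant markers: only 2 of the 8 were lowest in Prepuberty 2, and ALDOC was highest of the 8 libraries there (817 FPKM) and second in Postpuberty 2 (761 FPKM). The part of astrocyte RNA in the result was not tested.

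MOBP (gene ID 101113800, chr19:12732663-12777436), a small basic protein of compact myelin, had 408, 203 and 305 FPKM in the prepuberty libraries, 269, 184 and 273 FPKM in the puberty libraries and 597, 366 and 244 FPKM in the postpuberty libraries, in the order of their numbers. Postpuberty 1 stood highest and Puberty 2 lowest, and the ranges of the 3 stages overlapped. Its SD on the log2 scale over the 8 libraries, 0.49, was larger than that of 78.4% of genes, which made MOBP the most variable of the 9 genes after MBP.

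Among the membrane proteins, MOG (gene ID 101113019, chr20:27974433-27990824), an immunoglobulin-like protein of the outermost myelin surface, had 292, 211 and 289 FPKM in prepuberty, 275, 352 and 228 FPKM in puberty and 353, 336 and 285 FPKM in postpuberty. MAG (gene ID 101116672, chr14:45289258-45305377), which faces the axon, had 295, 196 and 311 FPKM in prepuberty, 239, 491 and 230 FPKM in puberty and 319, 308 and 287 FPKM in postpuberty. MOG and MAG stayed close to each other, with a ratio of MAG to MOG from 0.87 to 1.07 in the 8 libraries and of 1.40 in Puberty 2. CLDN11 (gene ID 101113649, chr1:217682947-217697791) had 410, 212 and 288 FPKM in prepuberty, 207, 122 and 261 FPKM in puberty and 408, 264 and 271 FPKM in postpuberty. All 3 postpuberty values of CLDN11 lay above all 3 puberty values, the nearest being 264 in Postpuberty 2 and 261 in Puberty 3. Of all genes tested, 7.15% did not overlap between these stages. MAL (gene ID 101115527, chr3:104601389-104625446), a proteolipid of membrane transport, had 129.55, 111 and 139 FPKM in prepuberty, 124, 289 and 119 FPKM in puberty and 168, 152 and 116 FPKM in postpuberty. MAL was the steadiest of the 9 genes over the 8 libraries, with an SD of 0.20 on the log2 scale, and in Puberty 2 it was 2.28 times the median of the others.

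Of the enzymes, CNP (gene ID 101120423, chr11:41863622-41870669), a 2′,3′-cyclic nucleotide phosphodiesterase of the cytoplasmic channels of myelin, had 812, 490 and 722 FPKM in prepuberty, 578, 1308 and 598 FPKM in puberty and 898, 719 and 686 FPKM in postpuberty. UGT8 (gene ID 101113069, chr6:11302019-11406943), which makes galactosylceramide, had 167, 76.7 and 125 FPKM in prepuberty, 119.8, 64.4 and 129.6 FPKM in puberty and 159, 103 and 99.5 FPKM in postpuberty. Puberty 2 thus held the highest CNP and the lowest UGT8 of all libraries. ERMN (gene ID 101113731, chr2:152402402-152409903), which binds actin in mature oligodendrocytes, had 137, 80.2 and 121 FPKM in prepuberty, 116, 124 and 111 FPKM in puberty and 142, 114 and 113 FPKM in postpuberty. ERMN in Puberty 2 lay within the range of the other libraries.

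Libraries of the same stage also differed from each other. Prepuberty 2 had the lowest level of the 8 libraries for 7 of the 9 genes (MOG, MAG, MOBP, CNP, UGT8, MAL and ERMN), while 16.9% of all genes tested were lowest there. Postpuberty 1 was highest for 6 genes (MOG, MAG, MOBP, CNP, MAL and ERMN), against 19.4% of all genes. Prepuberty 1 was highest for the other 3 (MBP, CLDN11 and UGT8), against 15.7% of all genes. Some markers of other cell types shared this order. Of the 6 endothelial markers, 5 were lowest in Prepuberty 2 and 3 were highest in Postpuberty 1. Of the 4 pituitary markers tested, 3 (PRL, GH and CGA) were highest in Postpuberty 1. PRL alone had its single lowest value in Prepuberty 2, at 0.056 FPKM there and 199.5 FPKM in Postpuberty 1. GH and CGA were at 0 in Prepuberty 2 but also in Puberty 1. Among the 8 libraries LHB was lowest in Postpuberty 2 and highest in Postpuberty 3. The part of endothelial and pituitary RNA in the result was not tested. In bulk tissue, fewer cells of a type and less RNA per cell cannot be told apart.

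The summed level of neuronal markers was highest in the library where most of the myelin genes were lowest, although only 4 of the 8 markers had their own highest level there. The summed FPKM of the 8 neuronal markers in the table was 1043 in Prepuberty 2, the highest of the 8 libraries, and 302 and 361 in Prepuberty 1 and Postpuberty 1, the lowest. SNAP25, a synaptic protein of neurons, was read at 558 FPKM in Prepuberty 2, 144 FPKM in Prepuberty 1 and 211 FPKM in Postpuberty 1. By stage, the neuronal sum ranged from 302 to 1043 in prepuberty, from 183 to 764 in puberty and from 361 to 825 in postpuberty, and no neuronal marker in the table was listed at 0 in any library. STMN2 and RBFOX3 were highest in Postpuberty 3, ELAVL4 in Puberty 3 and, among the 8 libraries, SLC32A1 in Prepuberty 1. The defining markers RBFOX3 (0.025 to 3.10 FPKM) and SLC32A1 (0.16 to 7.31 FPKM) were low throughout, and the part of neuronal RNA in the differences between libraries was not tested. The 4 markers of oligodendrocyte precursors summed to 42.4 to 63.1 FPKM in the 8 libraries and to 14.4 FPKM in Puberty 2. The most abundant of them was PTPRZ1, with a mean of 28.5 FPKM over the 9 libraries. In Puberty 2, 3 of the 4 were below all other libraries. CSPG4, at 1.95 FPKM there, lay within their range of 1.21 to 3.28 FPKM.

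**Figure D2:**
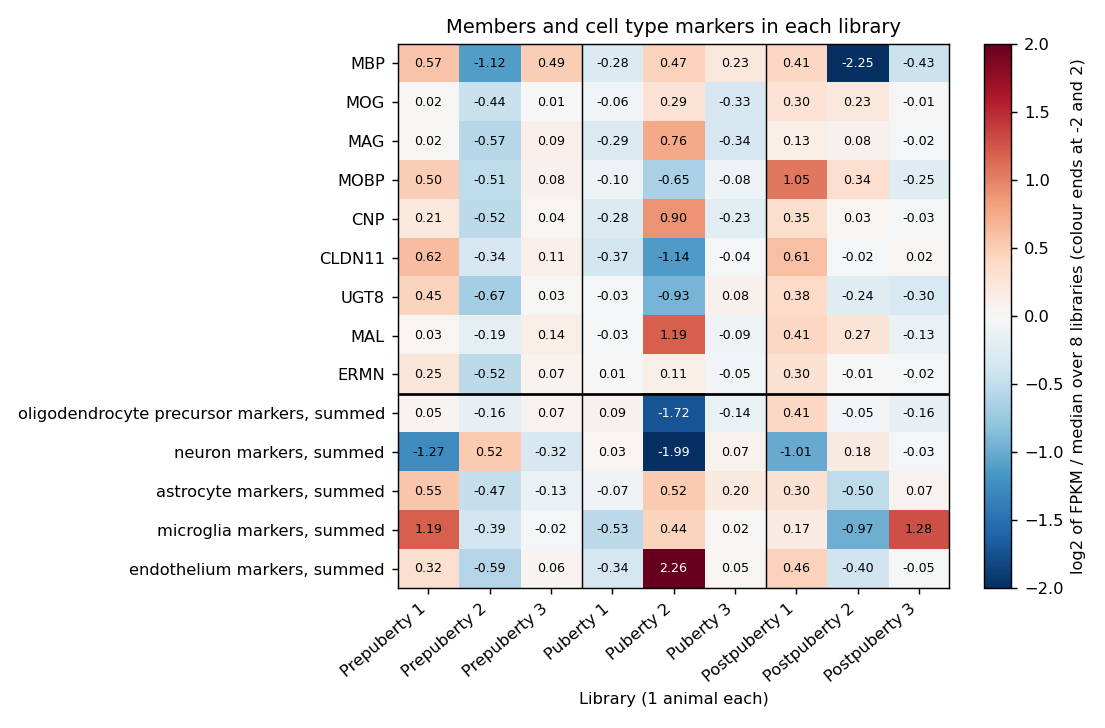
Log2 ratio of the FPKM in each library to the median of the 8 libraries without Puberty 2, for the 9 genes (upper rows) and for the summed FPKM of 5 lists of cell type markers (lower rows), with libraries in columns and lines between stages. Prepuberty 2 is below 0 for all 9 genes and above 0 (0.52) for the neuronal sum, and in Puberty 2 the genes take values from -1.14 (CLDN11) to 1.19 (MAL).

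Puberty 2 split the 9 genes. MAG, CNP and MAL were higher there than in every other library, at 1.69, 1.86 and 2.28 times the median of the other 8. MOBP, CLDN11 and UGT8 were lower than in every other library, at 0.64, 0.45 and 0.53 times that median. MBP, MOG and ERMN lay within the range of the others. The split of 3 genes above, 3 below and 3 within can be set against 20.3% and 52.6% of all genes. The 6 endothelial markers were split in Puberty 2 as well, with CLDN5 (624 against 54.7 to 114 FPKM) and ESAM above all others and 4 below, TIE1 at 0. The endothelial sum was 661 FPKM there against 91.6 to 189 FPKM, and its part in these values was not tested.

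The main transcript of each gene was the same one in all 9 libraries for MBP, MOG, MAG, MOBP, CNP and UGT8, and CLDN11, MAL and ERMN had a single coding transcript each. StringTie divides reads that fit several transcripts of a gene between them, so the shares below are estimates. XM_042239253.1 held 79.9% of the mean MBP level and XM_042239254.1 held 18.8%, with ranges over the 8 libraries of 73.5% to 82.5% and 16.7% to 21.6%. The lowest share of the first and the highest share of the second were both in Postpuberty 2, where MBP was also lowest. XM_027960830.2 held 4.83% of MBP in Postpuberty 2 and 0.73% to 1.94% in the 7 other libraries without Puberty 2. Its FPKM in Postpuberty 2, 53.8, lay within its range of 20.3 to 98.6 over the 8 libraries, unlike the FPKM of the main transcript, which was 818 there and at least 2001 in the others.

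MOG divided its level among more transcripts than the other genes. XM_015102803.4 held 56.9% of the mean, XM_027959140.3 held 24.8%, and 6 others shared the rest. In Puberty 2 the shares were 83.9% and 1.30%, outside the ranges of the 8 other libraries (45.5% to 64.7% and 20.1% to 34.4%). XM_027959140.3 had 4.56 FPKM in Puberty 2 and 53.5 to 116 FPKM elsewhere, while the main transcript had 296 FPKM in Puberty 2 and 118 to 189 FPKM elsewhere. The MOG sum in Puberty 2 was thus within the range of the other libraries although neither of its leading transcripts was.

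The same was seen for second transcripts of MAG and MOBP. MAG was mostly XM_012190171.4 (90.5% of the mean), and its second transcript XM_012190172.3 had 1.08 FPKM in Puberty 2 against 6.32 to 32.8 FPKM. MOBP was mostly XM_042236530.1 (77.9%), and XM_042236529.2 (14.7%) had 3.42 FPKM in Puberty 2 against 27.3 to 95.4 FPKM. Among the 8 libraries Puberty 3 differed most for MOBP, with 60.8% in the main transcript, 24.8% in XM_042236529.2 and 14.5% in XM_042236528.1. CNP was nearly all XM_027974523.2 (99.7%) and UGT8 nearly all XM_004009596.6 (99.3%). MOBP also had a transcript annotated as noncoding, XR_006057146.2, with 159 to 398 FPKM over the 9 libraries, of the size of the coding sum, which the rule left out of the gene level.

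**Figure D3:**
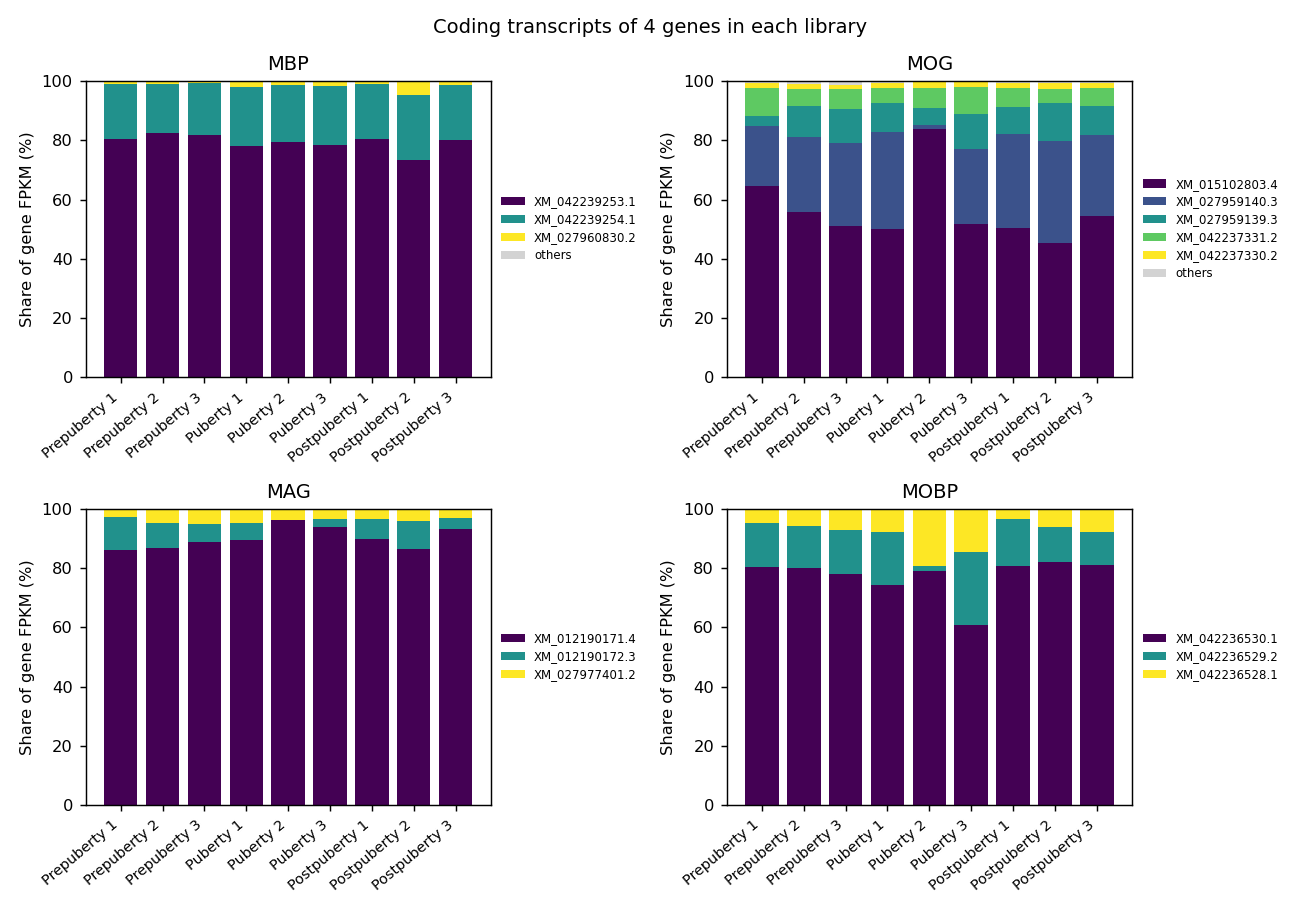
Share of the coding FPKM of MBP, MOG, MAG and MOBP (vertical axes, percent) that each RefSeq transcript held in each library, as stacked bars. The second transcripts of MOG (1.30%), MAG (0.22%) and MOBP (1.86%) nearly vanish in Puberty 2, while the shares of MBP transcripts there are within the range of the other libraries.

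The 9 genes were then compared with each other across libraries. Over the 8 libraries, Pearson's r of log2(FPKM + 1) was positive for 35 of the 36 pairs, with a median of 0.78, while the median over all pairs of the 13696 genes was 0.037 and 17.1% of all pairs reached an r of 0.5. Among the members 31 pairs reached 0.5. The points share their library, its depth and the makeup of its tissue piece. By exact permutation tests over all 40320 orders (two-sided, Benjamini-Hochberg adjusted over the 36 pairs), 20 pairs had an adjusted p below 0.05 by Pearson's r and 18 by Spearman's rho.

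By Pearson's r the highest pair was the membrane protein MAG with the enzyme CNP, though MOG with MAG and CNP with CLDN11 were higher by Spearman's rho. MAG and CNP had r = 0.93 and rho = 0.90 (n = 8, exact permutation p = 0.0012, adjusted p = 0.013; for rho p = 0.0046, adjusted p = 0.021). MOG and MAG had r = 0.92 and rho = 0.93 (exact permutation p = 0.00022, adjusted p = 0.0080; for rho p = 0.0022, adjusted p = 0.021). CNP and CLDN11 had r = 0.91 and rho = 0.93 (exact permutation p = 0.0014, adjusted p = 0.013; for rho p = 0.0022, adjusted p = 0.021). CNP stood nearest to the others, with a median r of 0.88 and 7 of its 8 pairs below the adjusted threshold. UGT8 and ERMN had r = 0.92 (exact permutation p = 0.0024, adjusted p = 0.015) but a lower rho of 0.74 (exact permutation p = 0.046, adjusted p = 0.075).

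MBP stood apart from the rest. Its r with the other 8 genes ran from -0.01 (MOG, exact permutation p = 0.98, adjusted p = 0.98) to 0.72 (UGT8, exact permutation p = 0.046, adjusted p = 0.075), with a median of 0.33, and none of its 8 pairs passed by Pearson's r. Its rho with UGT8 was 0.86 (exact permutation p = 0.011, adjusted p = 0.035). In Postpuberty 2 MBP was lowest while MOG, MAG, MOBP, CNP and MAL were above their medians. Without Postpuberty 2 the median r of the MBP pairs was 0.76 and the lowest r of any of the 36 pairs was 0.63.

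The tests rested on few libraries. When the 2 libraries farthest from the median of the first gene of a pair were left out, r was 0.83 for MAG and CNP, 0.69 for MOG and MAG, 0.88 for CNP and CLDN11 and 0.79 for UGT8 and ERMN. Over the 20 pairs that had passed, this r was between 0.35 and 0.92 (6 libraries), and 15 of them kept an r of at least 0.5. Without Prepuberty 2 the median r was 0.66 and without Postpuberty 1 it was 0.71, and in both cases 0 of 36 pairs passed the adjusted threshold over 7 libraries. With stage means subtracted, all 36 pairs had a positive r and the median was 0.80, but the 72 orders within stages left 0 pairs below the adjusted threshold. With Puberty 2 added, the median r over the 9 libraries fell to 0.41, 7 pairs were negative, down to -0.50 for CLDN11 and MAL, and 9 pairs passed. MAG and CNP, both highest in Puberty 2, then had r = 0.97, and CLDN11 and UGT8, both lowest there, had r = 0.89.

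**Figure D4:**
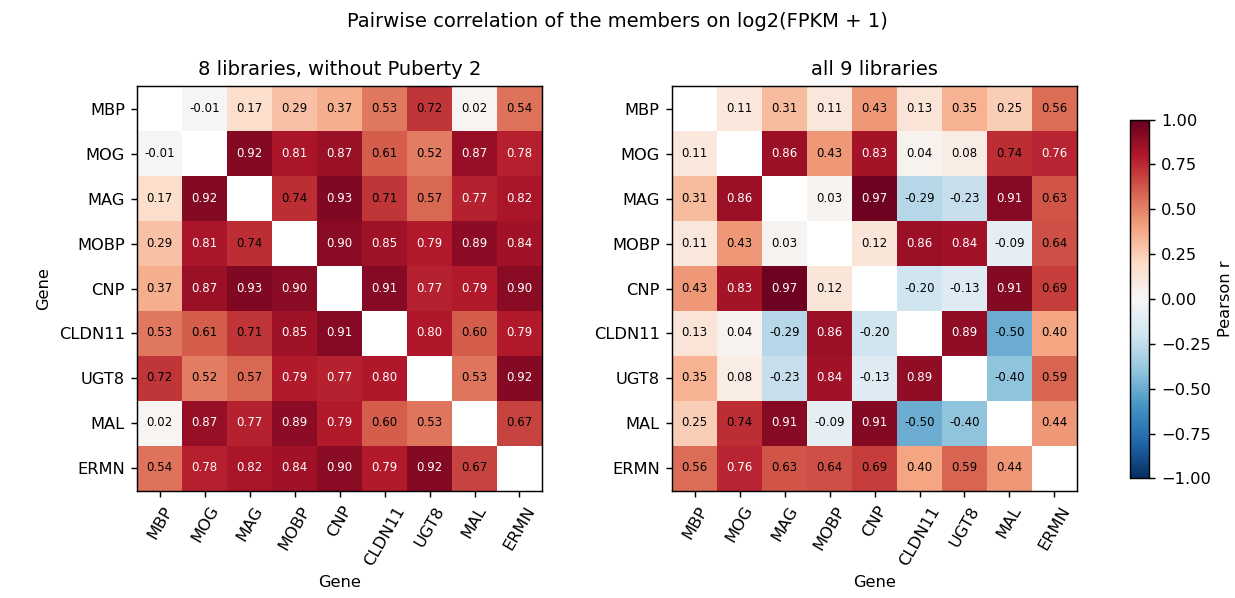
Pearson's r of log2(FPKM + 1) for each pair of the 9 genes over the 8 libraries without Puberty 2 (left) and over all 9 libraries (right), on a colour scale from -1 to 1. Over 8 libraries all values but those of MBP are 0.52 or more, and with Puberty 2 the pairs of CLDN11 and UGT8 with MAG, CNP and MAL, and that of MOBP with MAL, turn negative.

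The stages were compared to ask whether myelin gene expression differed around first estrus. With limma on log2(FPKM + 1), in 1 fit of all 9 libraries, 0 of the 9 genes were called in any of the 3 comparisons (a log2 fold change of 1 or more in either direction with a Benjamini-Hochberg adjusted p below 0.05 over all genes tested). The background was the same, as 0% of the 13696 genes were called between puberty and prepuberty, 0% between postpuberty and puberty, and 0% between postpuberty and prepuberty. At an unadjusted p below 0.05 limma gave 225, 274 and 100 of the 13696 genes in these comparisons, and 0 of the 9. Without Puberty 2 the counts were 211, 266 and 246, again with 0 of the 9. A p that misses the threshold does not show equal levels, and the intervals of the fold changes were wide.

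Between puberty and prepuberty, 6 of the 9 genes had a positive log2 fold change (puberty minus prepuberty, on the log2(FPKM + 1) scale), and the median was 0.10 against -0.15 over all genes, but -0.13 against -0.29 when libraries were scaled to an equal total and -0.20 against 0.0096 with quantile normalization. Without Prepuberty 2 the median was -0.13 against -0.10 over all genes. CLDN11 had the largest difference at -0.64 ± 0.38 (SE; 95% confidence interval -1.49 to 0.21, adjusted p = 0.84), and MAL the largest positive one at 0.36 ± 0.36 (-0.46 to 1.18, adjusted p = 0.84). MBP was at 0.16 with an interval from -1.47 to 1.80. Without Puberty 2 only MBP (0.0011), UGT8 (0.092) and ERMN (0.048) had a positive sign, the median was -0.060 against 0.022 over all genes, and CLDN11 was at -0.33 (-1.09 to 0.43). No gene had puberty and prepuberty libraries that did not overlap, with or without Puberty 2, while 4.94% and 11.3% of all genes did.

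Between postpuberty and puberty, CLDN11 was 0.71 ± 0.38 higher (95% confidence interval -0.14 to 1.56, unadjusted p = 0.090, adjusted p = 0.78) and MOBP 0.66 ± 0.40 higher (-0.25 to 1.56, adjusted p = 0.78), or 0.28 higher when its noncoding transcripts were added and 0.32 higher without Postpuberty 1. MBP had the opposite sign at -0.90 ± 0.72 (-2.53 to 0.74, adjusted p = 0.78), which was -0.15 without Postpuberty 2 and -1.48 without Postpuberty 1. CLDN11 was the only one of the 9 genes whose libraries did not overlap between these stages, against 7.15% of all genes, and its exact permutation test gave p = 0.10 (n = 3 against 3, two-sided), the smallest p that 3 against 3 libraries allow. The median of the 9 genes was 0.063 against 0.20 over all genes, and -0.072 against 0.11 with upper quartile scaling. It was 0.25 against 0.31 with equal totals and 0.35 against -0.0075 with quantile normalization, so the order of the members and all genes turned with the scaling, and without Postpuberty 1 the members' median was -0.011.

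Without Puberty 2, MOG, MAG, CNP and CLDN11 were each higher in all 3 postpuberty libraries than in Puberty 1 and Puberty 3, against 13.7% of all genes that did not overlap in either direction. Their log2 fold changes were 0.37 (MOG, 95% confidence interval -0.14 to 0.87), 0.38 (MAG, -0.15 to 0.91), 0.37 (CNP, -0.25 to 0.99) and 0.40 (CLDN11, -0.36 to 1.16), each with an adjusted p of 1.0. The exact permutation p over 3 against 2 libraries was 0.20, 0.10, 0.20 and 0.40 for these genes, where 0.10 is the smallest possible. The 9 genes had a median of 0.37 against 0.028 over all genes, and MBP (-0.73) and UGT8 (-0.081) had the opposite sign. Of the puberty libraries left, Puberty 3 stood apart in markers of the choroid plexus. TTR was at 7594 FPKM there and at most 723 FPKM in the others, and KCNJ13 at 29.8 against at most 4.67 FPKM. The part of choroid plexus RNA in these values was not tested.

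Between postpuberty and prepuberty, where Puberty 2 enters only the estimate of the spread, 8 of the 9 genes had a positive log2 fold change, with a median of 0.19 against 0.049 over all genes, and of 0.12 to 0.15 under the 3 other scalings. Without Prepuberty 2 the median was -0.0061 against 0.069 over all genes, and only MOG (0.15), MAG (0.0091), MOBP (0.091) and MAL (0.097) had a positive sign. MOBP was at 0.36 (95% confidence interval -0.55 to 1.26), MOG at 0.31 (-0.31 to 0.92) and MBP, the exception, at -0.73 (-2.37 to 0.90), each with an adjusted p of 1.0. Without Postpuberty 2 MBP was at 0.013. MOBP was at 0.14 with its noncoding transcripts added, 0.023 without Postpuberty 1 and 0.67 without Postpuberty 3. With Puberty 2 left out of the fit the interval of MOG narrowed to -0.14 to 0.75. No gene had libraries that did not overlap, against 4.4% of all genes. The 3 comparisons share libraries, so their values are not independent of each other. Prepuberty held both the lowest library of 7 genes (Prepuberty 2) and the highest of MBP, CLDN11 and UGT8 (Prepuberty 1).

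**Figure D5:**
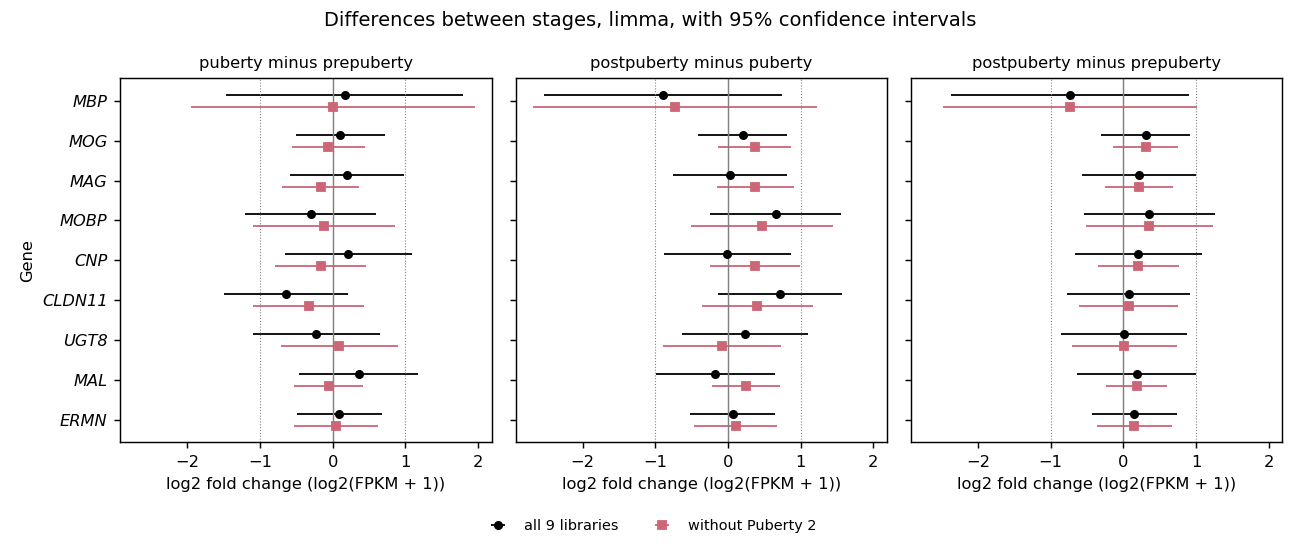
Log2 fold change on log2(FPKM + 1) of each gene in the 3 comparisons between stages (horizontal axes), with 95% confidence intervals from limma, for all 9 libraries (black) and without Puberty 2 (red), and dotted lines at -1 and 1. Every interval includes 0, and the interval of MBP is the widest in each comparison.

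Other genes of the pathway, in 5 lists drawn from general knowledge, gave 0 calls as well. Of 20 myelin membrane and adhesion genes, 12 had a positive log2 fold change between puberty and prepuberty (median 0.11 against -0.15 over all genes), which became 9 genes and a median of -0.019 against 0.022 without Puberty 2. Between postpuberty and puberty 10 of the 20 had a positive value (median 0.10 against 0.20), and 13 without Puberty 2 (0.21 against 0.028). Between postpuberty and prepuberty 16 of the 20 had a positive value (median 0.12 against 0.049). OPALIN, a membrane glycoprotein of oligodendrocytes, was at 104 to 219.6 FPKM, and between postpuberty and puberty it was higher, and NINJ2 lower, at an unadjusted p below 0.05. Without Puberty 2, where NINJ2 was at 18.6 FPKM against at most 7.58 FPKM in the others, OPALIN and PLLP were higher at such a p in this comparison, and NINJ2 was lower at such a p in postpuberty than in prepuberty instead. Of the 14 measured genes of myelin lipid synthesis, ENPP2 (84.4 to 150 FPKM), CERS2, a ceramide synthase (67.4 to 108 FPKM), and HMGCS1, of cholesterol synthesis (63.8 to 126 FPKM), led in level. HMGCS1, SCD and ELOVL5 were at 0.40, 1.08 and 1.02 FPKM in Puberty 2. The list's median was -0.31 between puberty and prepuberty with all libraries (-0.15 over all genes) and 0.021 without Puberty 2 (0.022). Between postpuberty and puberty it was 0.34 against 0.20 over all genes, with 12 of the 14 positive. Without Puberty 2 that median was 0.0089 against 0.028, with 7 positive.

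Of the 19 cytoskeletal and cytoplasmic genes, CRYAB, a small heat-shock protein, reached 2684 FPKM in Puberty 2 against 351 to 785 FPKM elsewhere, and PPP1R14A reached 1432 against 115 to 255 FPKM. TUBB4A, a tubulin of oligodendrocytes, was steadier at 519.9 to 766 FPKM in the 8 libraries and 909 FPKM in Puberty 2. The list had medians of -0.083, 0.20 and 0.090 in the 3 comparisons, against -0.15, 0.20 and 0.049 over all genes. Without Puberty 2 the first and second were -0.023 and 0.086, against 0.022 and 0.028 over all genes. The same medians over all genes apply to the lists below. At an unadjusted p below 0.05, SEPTIN7, a cytoskeletal GTP-binding protein, was lower in puberty (0 to 2.76 FPKM) and in postpuberty (0.033 to 5.75 FPKM) than in prepuberty (11.9 to 22.4 FPKM), and CA2, a carbonic anhydrase, was lower in postpuberty than in puberty. Without Puberty 2 these results stayed below that p, and between postpuberty and prepuberty CA2 was also lower and CARNS1, a carnosine synthase, higher. Of the 19 measured transcription and lineage genes, OLIG1 (71.6 to 144 FPKM) and BCAN (57.8 to 117 FPKM) led in level, and MYRF, which drives myelin genes, was at 20.5 to 46.5 FPKM. This list had 4, 16 and 16 genes with a positive log2 fold change and medians of -0.33, 0.36 and 0.14. Without Puberty 2, 8 and 15 genes were positive in the first and second, with medians of -0.045 and 0.14. The 12 axon and node genes had medians of -0.63, 0.55 and -0.10, the first turning to 0.019 and the second to -0.15 without Puberty 2, and NEFL, a neurofilament, ranged from 54.8 to 499.6 FPKM in the 8 libraries. Of these, ANK3, the ankyrin of nodes and axon initial segments, was low (0.55 to 3.73 FPKM in the 8 libraries). It was lower in puberty than in prepuberty and higher in postpuberty than in puberty at an unadjusted p below 0.05. Without Puberty 2, where ANK3 was at 0.15 FPKM, 0 of the 12 genes had such a p in these comparisons. In the lipid and lineage lists 0 genes had such a p in the fit of all libraries. Without Puberty 2 only GAL3ST1, a sulfotransferase of myelin lipids (1.84 to 3.88 FPKM in the 8 libraries), did, higher in postpuberty than in puberty and in prepuberty. Of all 13696 genes, 225, 274 and 100 had such a limma p in the 3 comparisons, and 211, 266 and 246 without Puberty 2.

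The lists also differed in how they followed the 9 genes from library to library. Likeness was measured as Pearson's r, over the 8 libraries, with the mean of the 9 genes after each was centred and divided by its SD. The median r was 0.66 for the membrane and adhesion genes, 0.60 for transcription and lineage, 0.54 for cytoskeleton and cytoplasm, 0.39 for lipid synthesis and -0.50 for axon and node genes, beside 0.024 for all other genes tested. Prepuberty 2 was the lowest library for 13 of the 20 membrane and adhesion genes and for 0 of the 12 axon and node genes. The 4 precursor markers had r = 0.96 (PDGFRA), 0.59 (CSPG4), 0.49 (PTPRZ1) and -0.24 (GPR17), and TF (-0.71) and QDPR (-0.64), of the cytoskeleton and cytoplasm list, ran against the members. Endothelial markers had a median r of 0.76 and neuronal markers of -0.68. It was 0.50 for pituitary, 0.36 for astrocyte, 0.34 for peripheral myelin and 0.32 for microglia markers. Ependymal (0.042), hypothalamic (0.0034) and choroid plexus markers (-0.066) had lower medians.

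Of all 13687 other genes tested, the 10 with the highest likeness were GPR37L1 (0.99), LAMP1 (0.98), TSPAN32 (0.97), SMARCC1 (0.97), SYNE3 (0.97), NDP (0.97), BCHE (0.97), LOC101105090 (0.96), CSRP1 (0.96) and RHOB (0.96). GPR37L1, an orphan receptor of glia, was at 106 FPKM in Prepuberty 2 and 152 FPKM in Postpuberty 1, the ends of its range over the 8 libraries, and at 578 FPKM in Puberty 2. The 5 with the lowest were CDH2 (-0.98), DOK6 (-0.98), HAS3 (-0.97), GINS1 (-0.97) and UBE2K (-0.96). CDH2, a neural cadherin, was at 18.4 FPKM in Prepuberty 2 and 11.9 FPKM in Postpuberty 1. With 8 libraries and this many genes such values are a description only.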

How the data were processed

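Hypothalamus RNA of 9 ewes (3 stages, 3 animals each, stages and replicate numbers from the sample labels, ages from the study's methods) was analysed from the deposited transcript values. Although described as raw counts, these are FPKM, which the authors made with Trimmomatic, HISAT2 on ARS-UI_Ramb_v3.0 and StringTie, per library and without scaling between libraries. The deposited FPKM carry no read counts, and the study's read totals were not used here, so precision rests on the spread between animals. As FPKM are not counts, the count test that the study used was replaced by limma.

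The members and gene lists were chosen with earlier results of these data known. FPKM of the 76682 NM and XM transcripts with a RefSeq symbol (of 76684) were summed to 21284 genes, and 22600 assembled transcripts without a gene name were left out. Genes with a mean of at least 0.5 were tested with limma 3.58.1 (R 4.3.3) on log2(FPKM + 1) with a variance trend, all 9 libraries in 1 fit, and called at a log2 fold change of 1 or more in either direction with an adjusted p below 0.05. Named were the 9 members, transcripts with at least 10% of a gene's mean or named after their values were seen, list genes leading in level or named after their values were seen, and the 10 most and 5 least alike genes. The script was tested on simulated data. Correlations used exact permutation of 8 libraries, in Python 3.11.15 with numpy 2.4.6, pandas 2.3.3 and scipy 1.17.1, and figures matplotlib 3.10.9. Alternatives covered scaling, filter, pseudocount, variance model, replicate block, transcripts counted and each library left out. No libraries held identical values.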

Additional observations from a re-analysis of the deposited data

How the results depend on the processing

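Under the 13 settings that kept all libraries and the 9 that left out 1 library, 0 of the 9 genes and 0 of all genes were called in each comparison by limma with the adjusted p, and the adjusted p of a member was never below 0.51. At an unadjusted p below 0.05 alone, 225, 274 and 100 genes passed between puberty and prepuberty, postpuberty and puberty, and postpuberty and prepuberty. Over the other settings these counts ran from 155 (only the 2 stages fitted) to 679 (without Puberty 1), from 173 (without Postpuberty 1) to 801 (without Puberty 3), and from 82 (without Postpuberty 1) to 246 (without Puberty 2). With the replicate block the counts of calls stayed at 0, and CLDN11 between postpuberty and puberty had an unadjusted p of 0.0497 and an adjusted p of 0.80. An unadjusted p below 0.05 was also seen between these stages for CLDN11 without Puberty 3 (a difference of 0.95, limma's adjusted p = 0.51) and MOBP without Postpuberty 3 (0.97, limma's adjusted p = 0.89). The numbers do not pair animals: deviations of same-numbered libraries correlated from -0.32 to 0.52 (median -0.09) and 3 of 9 libraries were closest to their own number.

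The direction of a member turned in 20 of 351 values when all libraries were kept, and the cause was not tested. Between puberty and prepuberty, scaling to an equal total gave -0.065 for MBP, -0.13 for MOG, -0.035 for MAG, -0.011 for CNP and -0.14 for ERMN, and quantile normalization gave -0.20 for MOG, -0.16 for MAG, -0.28 for CNP and -0.15 for ERMN. Between postpuberty and puberty, equal totals gave 0.18 for CNP and 0.016 for MAL, quantile normalization 0.33 for CNP and 0.12 for MAL, upper quartile scaling -0.11 for MAG and -0.072 for ERMN, and the main transcript alone -0.062 for MOG and -0.029 for MAG. Between postpuberty and prepuberty, UGT8 was at -0.028 with equal totals, -0.037 with upper quartile scaling and -0.024 with quantile normalization. Equal totals moved the median of all genes between puberty and prepuberty from -0.15 to -0.29 and quantile normalization to 0.0096.

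With 1 library left out, 17 of the 27 differences turned direction in at least 1 case. Between puberty and prepuberty they ranged from -0.39 to 0.46 for MBP, -0.060 to 0.25 for MOG, -0.16 to 0.39 for MAG, -0.17 to 0.42 for CNP, -0.52 to 0.092 for UGT8, -0.056 to 0.58 for MAL and -0.13 to 0.25 for ERMN. Between postpuberty and puberty the ranges were -0.17 to 0.38 for MAG, -0.21 to 0.37 for CNP, -0.081 to 0.42 for UGT8, -0.39 to 0.24 for MAL and -0.043 to 0.12 for ERMN. Between postpuberty and prepuberty they were -1.31 to 0.013 for MBP (0.013 without Postpuberty 2), -0.0061 to 0.36 for CNP, -0.16 to 0.32 for CLDN11, -0.29 to 0.27 for UGT8 and -0.071 to 0.31 for ERMN.

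Leaving out 1 library, an alternative chosen after seeing the data, moved the number of the 9 genes whose stages did not overlap to between 0 and 3 (puberty and prepuberty, 3 without Prepuberty 2), 1 and 4 (postpuberty and puberty, 4 without Puberty 2) and 0 and 2 (postpuberty and prepuberty, 2 without Postpuberty 3). The share of all genes rose as well without Puberty 2, from 4.94% to 11.3% in the first comparison and from 7.15% to 13.7% in the second. The counts without Prepuberty 2 and without Postpuberty 3 are not set against such a share here. The median pairwise r ranged from 0.66 to 0.82 over such fits and was 0.41 with all 9 libraries. The number of pairs below the adjusted threshold ranged from 0 (without Prepuberty 2 or Postpuberty 1) to 22 (without Postpuberty 2), was 9 with all 9 libraries and 0 with stage means subtracted.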
